A study of Mus musculus with 40 samples.

Results

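The 7 genes described here belong to the renin-angiotensin system: Agt (angiotensinogen), Ace (angiotensin-converting enzyme), Agtr1a (the type 1a angiotensin II receptor), Agtrap (the receptor-associated protein), Atp6ap2 (the prorenin receptor), Enpep (aminopeptidase A) and Lnpep (insulin-regulated aminopeptidase). They were taken from the mouse aorta RNA-seq tables by gene symbol alone. All 7 were found among the 17402 genes listed for the first experiment and among the 15399 listed for the second, and all 7 passed the low-value filter, so all were tested, among 14412 and 13731 protein-coding genes.

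The study asked how calcineurin, a calcium-dependent phosphatase, shapes the response of the aortic wall to angiotensin II (Ang-II), which was infused at 1 µg/kg/min. The first experiment (22 libraries) compared male mice with floxed Cnb1 (the Ppp3r1 gene, calcineurin regulatory subunit), either negative for the Myh11-CreERT2 transgene (Cn-Ctl) or carrying it (SM-Cn-/-), at basal state and after 2, 6 and 24 h of Ang-II. The labels give every Cn-Ctl library as floxed and negative for the transgene, whereas the study's methods also name transgenic mice without floxed Cnb1 as controls. Which pools held such mice is not given. Myh11-CreERT2 directs an inducible recombinase to smooth muscle, and both genotypes received 1 mg of tamoxifen daily for 5 days and were then kept for 6 weeks. The second experiment (18 libraries) compared wild-type C57BL/6J male mice without (WT) or with cyclosporin A (CsA), a calcineurin inhibitor released by a minipump placed 5 days earlier, at basal state and after 2 and 24 h of Ang-II. The WT mice had no pump at that stage, so CsA and its pump cannot be told apart. Ang-II was also given by minipump, and the study's methods describe control mice that had surgery but no pump. Ang-II and the presence of its pump can therefore not be told apart either. Every library was made from a pool of 3 aortas stripped of perivascular tissue and adventitia. Of the 14 groups, 12 held 3 libraries, and basal Cn-Ctl and 24 h Cn-Ctl held 2 each. The study's methods report that 1 untreated Cn-Ctl replicate was dropped because it lay far from the other 2 in a principal component analysis. The basal Cn-Ctl libraries were thus kept partly by their expression, which can narrow their spread. The methods give no reason for the 24 h group. Ang-II-treated Cn-Ctl, WT and CsA mice were kept only when their systolic pressure exceeded 130 mmHg, and no pressure criterion was applied to SM-Cn-/- mice. Mice were also left out where loss of Cnb1 (SM-Cn-/-) or block of NFAT dephosphorylation in the thymus (CsA) could not be shown.

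Angiotensinogen is the secreted precursor from which renin releases angiotensin I. Angiotensin-converting enzyme, held on the endothelial surface, then produces Ang-II, which acts on vascular smooth muscle through the type 1 receptor. Aminopeptidase A turns Ang-II into angiotensin III, while insulin-regulated aminopeptidase is a membrane peptidase that binds angiotensin IV. The receptor-associated protein favours removal of the receptor from the cell surface, and the prorenin receptor is also an accessory subunit of the vacuolar proton pump.

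Depth was 2728007 to 10250178 assigned reads per library in the first experiment (median 6519082) and 18976266 to 38900009 in the second (median 22815607), so low genes were measured with less counting error in the second. Values are signals in RPM, that is assigned reads per library size as the authors scaled it. Agtr1a rested on 2 to 46 reads per library in the first experiment and on 23 to 588 in the second, and Agt on 1 to 46 and 5 to 413 reads. The targeted gene Ppp3r1 ranged from 41.8 to 134 RPM over the first experiment and did not separate the genotypes (mean over times −0.23 on the log2 scale, SE 0.17, adjusted p = 0.47). The value covers the whole gene and does not check the deletion, so the groups are named as labelled. In bulk tissue, fewer cells of a type and less RNA per cell cannot be told apart. Markers of smooth muscle, Myh11, Acta2, Tagln, Cnn1 and Smtn, summed to between 15675 and 48416 RPM in all 40 libraries, far above the summed markers of endothelium (282 to 1273) and of macrophages (35.0 to 190). Higher sums were seen for adventitial fibroblasts (Pdgfra, Dpt, Lum, Pi16 and Dcn, 724 to 2612), pericytes (1088 to 3928) and adipose tissue (666 to 6605). Fibroblast and fat markers were thus present although the aortas had been stripped. The smooth muscle sum was 20202 to 23626 in basal SM-Cn-/- and 27742 to 28205 in basal Cn-Ctl libraries. It was 22353 to 27997 and 31231 to 32959 at 6 h, and overlapped between genotypes at 2 h. At 24 h it was 23693 to 26405 in SM-Cn-/- and 26793 to 48416 in Cn-Ctl libraries. Of the 5 markers, 2 were called lower in the genotype mean (median log2 difference −0.20). In basal CsA libraries the sum was 15675 to 17718 against 24805 to 34011 in basal WT libraries, and all 5 markers were called lower there (median −0.77) and in the CsA mean (median −0.47). Their part in the differences of the 7 genes was not tested.

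The start regions of Agt, Ace and Enpep are shown because these 3 genes differed between arms in the tests described next. The letters are from RefSeq on build GRCm38.p6, read 5′ to 3′ on the gene's own strand and ending just before the annotated start. Capitals mark matches to the TATA box (TATANA) or to the GC box (GGGCGG), searched on both strands, so that TTTATA is a match on the opposite strand and overlapping GC boxes share letters. The windows are chr8:124569707-124569956 on the minus strand for Agt, chr11:105967698-105967944 on the plus strand for Ace and chr3:129332750-129332999 on the minus strand for Enpep.
Agt: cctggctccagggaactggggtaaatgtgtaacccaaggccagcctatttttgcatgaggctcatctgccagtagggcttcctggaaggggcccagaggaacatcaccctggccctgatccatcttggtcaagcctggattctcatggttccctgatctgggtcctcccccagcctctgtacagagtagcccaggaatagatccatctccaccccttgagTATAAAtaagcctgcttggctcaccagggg
Ace: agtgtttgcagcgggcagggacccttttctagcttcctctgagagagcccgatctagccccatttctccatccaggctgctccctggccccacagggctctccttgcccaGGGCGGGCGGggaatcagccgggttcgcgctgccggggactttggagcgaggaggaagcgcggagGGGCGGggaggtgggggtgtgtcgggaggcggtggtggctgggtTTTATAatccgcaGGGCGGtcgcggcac
Enpep: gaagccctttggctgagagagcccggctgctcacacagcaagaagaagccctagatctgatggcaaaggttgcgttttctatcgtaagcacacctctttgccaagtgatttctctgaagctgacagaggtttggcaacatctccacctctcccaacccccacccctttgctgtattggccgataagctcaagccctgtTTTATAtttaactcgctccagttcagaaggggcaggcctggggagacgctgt
Each of the 3 windows held 1 match to the TATA box, which 22.6% of 32851 RefSeq promoter windows of 250 bases held, and the Ace window also held 4 GC boxes, a motif found in 32.7% of windows. None of the 7 windows that matched 6 of the genes (Ace has 2 starts) contained GGAAA, the core bound by the calcineurin-dependent NFAT factors, which 55.6% of windows held, nor the AP-1 motif TGANTCA, which 6.75% held. These letters describe the windows only.

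Per kb of exon, Ace was the most abundant of the 7 genes, at a mean signal of 61.2 RPM per kb in the first experiment and 66.9 in the second. Atp6ap2 followed at 28.2 and 24.0, Agtrap at 6.55 and 6.48, and Enpep at 3.42 and 3.49. Agt (1.75 and 1.35), Agtr1a (1.12 and 1.30) and Lnpep (1.12 and 2.66) were the lowest. The length joined all annotated exons of a gene, 14144 bases for Lnpep, and the order depends on it. Undivided, mean Lnpep was 37.6 RPM in the second experiment, above Agtrap (27.5) and Enpep (16.4). In the first it was 15.9 RPM, below both (27.7 and 16.1). All other levels in the text are in RPM, not divided by length, and compare libraries within a gene. The 2 experiments were normalised separately and are not compared with each other.

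Each gene was tested in 24 comparisons with limma on log2(signal + 0.5), with Benjamini-Hochberg adjustment over all genes and a call at an adjusted p below 0.05. Lnpep and Enpep were each called in 7 comparisons, Agt and Agtrap in 3 each, Ace in 2, and Agtr1a and Atp6ap2 in none. Against basal, Ang-II in Cn-Ctl mice gave 1 call at 2 h (6.25% of all genes were called), 1 at 6 h (3.97%) and 0 at 24 h (5.62%). In SM-Cn-/- mice it gave 1 call at 2 h (1.13%), 0 at 6 h (2.35%) and 0 at 24 h (0.791%). All 3 of these calls were Lnpep, higher with Ang-II. In WT mice 2 of the 7 genes were called at 2 h (21.4% of all genes) and 2 at 24 h (35.0%). In CsA mice 4 were called at 2 h (20.2%) and 1 at 24 h (8.98%). The WT shares were close to the background of all genes, and the 4 of 7 at 2 h of CsA were above it. That count of 4 was fragile, running from 0 to 4 with 1 library left out.

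Between genotypes, no gene of the 7 was called at basal state (0.0139% of all genes), 2 h (3.71%) or 6 h (1.98%), and 1 was called at 24 h (4.95%). Averaged over the 4 states, Ace was higher and Enpep and Lnpep were lower in SM-Cn-/- aortas, so that 3 of 7 were called against 11.2% of all genes. Between CsA and WT, 2 of 7 were called at basal state (25.2% of all genes), 0 at 2 h (1.33%), 1 at 24 h (5.56%) and 3 for the mean over times (29.0%). In that mean Agt was higher and Enpep and Lnpep were lower in CsA aortas. The median log2 difference of the 7 genes was 0.03 for the genotype mean and 0.07 for the CsA mean, against 0.01 and −0.01 over all genes, since members moved in both directions. None of the 7 responses to Ang-II was shown to differ between genotypes at 2 h (0.513% of all genes called), 6 h (0.0624%) or 24 h (0.513%), or between CsA and WT at 2 h (0.146%) or 24 h (9.42%).

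**Figure D1:**
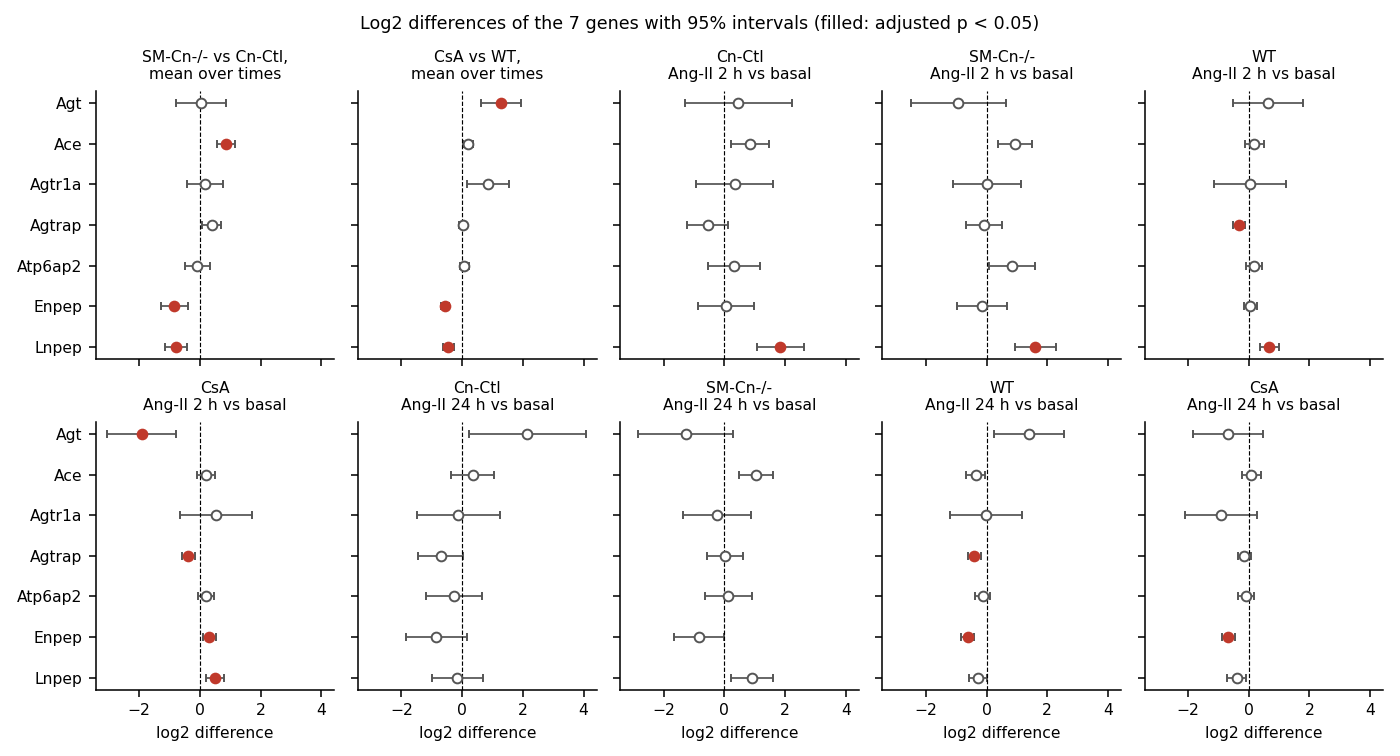
Log2 differences of the 7 genes with 95% intervals in the comparisons named above each panel (x axis, log2 of signal + 0.5; one gene per line; filled points have an adjusted p below 0.05). Lnpep was higher 2 h after Ang-II in Cn-Ctl mice by 1.85, and both Enpep and Lnpep lay below 0 in the mean differences of SM-Cn-/- from Cn-Ctl and of CsA from WT.

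Agt, the precursor of all angiotensins (GRCm38 chr8:124556534-124569706, minus strand), was low and uneven between pools. In WT libraries it stood at 0.217, 0.393 and 0.547 at basal state, at 0.693, 1.23 and 0.694 after 2 h, and at 1.72, 3.17 and 0.979 after 24 h. In CsA libraries it stood at 3.53, 5.85 and 8.99 at basal state, at 2.22, 0.735 and 0.823 after 2 h, and at 1.36, 2.30 and 10.6 after 24 h. All 3 basal CsA libraries therefore lay above all 3 basal WT libraries. After 2 and 24 h of Ang-II the CsA and WT ranges overlapped. The 24 h CsA libraries were spread from 1.36 to 10.6, the highest Agt value of this experiment.

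The basal excess of Agt in CsA aortas was 2.83 on the log2(signal + 0.5) scale (SE 0.54, 95% interval 1.68 to 3.98, adjusted p = 0.0024), a 7.13-fold difference on that scale. The mean over times was 1.29 (SE 0.31, adjusted p = 0.0066). After 2 h of Ang-II, Agt fell by 1.92 in CsA aortas (SE 0.54, adjusted p = 0.021). In WT aortas the 24 h difference from basal was 1.39 (adjusted p = 0.058), with all 3 treated libraries above all 3 basal ones. The change at 2 h was 2.55 lower in CsA than in WT mice, with an interval of −4.18 to −0.93 but an adjusted p of 0.18, so a difference in response was not called. The 2 h call in CsA mice was lost without CsA basal replicate 2 (−1.91, adjusted p = 0.053), CsA basal replicate 3 (−1.62, 0.089), CsA 2 h replicate 2 (−1.72, 0.087) or CsA 2 h replicate 3 (−1.77, 0.057). Without CsA 24 h replicate 3, the library at 10.6, the 24 h change of Agt in CsA mice was −1.45 (adjusted p = 0.044) and the difference in 24 h response from WT was −2.84 (adjusted p = 0.0058), against −0.69 (0.44) and −2.08 (0.095) with it. Without WT 24 h replicate 3 the WT difference at 24 h was 1.71 (adjusted p = 0.041).

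Between basal CsA and basal WT aortas, markers of fat cells differed in the same direction as Agt. All 6 adipose markers (Adipoq, Plin1, Cidec, Fabp4, Cfd and Ucp1) were higher in basal CsA than in basal WT aortas (median log2 difference 2.30). Their sum was 3860 to 6360 in basal CsA libraries against 666 to 1245 in basal WT libraries. Over all hours the adipose sum was 1935 to 6605 in CsA and 666 to 1884 in WT libraries, which did not overlap. Within the 9 CsA libraries, which share dissection and depth as possible sources of likeness, log2 Agt and the log2 adipose sum had a Pearson correlation of 0.86, and within the 9 WT libraries of 0.52. At 2 h the adipose sum was 1935 to 5367 in CsA and 989 to 1634 in WT libraries, while the Agt ranges overlapped. In the genotype experiment at 24 h it was 2202 to 3689 in SM-Cn-/- libraries, where Agt was 0.663 to 1.98. It was 887 to 3064 in 24 h Cn-Ctl libraries, where Agt was 2.43 and 12.04. The part of adipose tissue in the Agt difference was not tested. All 5 endothelial and all 5 macrophage markers were also higher in basal CsA aortas (median log2 differences of 1.20 and 1.16).

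In the genotype experiment Agt ranged from 0.218 to 13.4 and passed the test in no comparison. Cn-Ctl libraries held 0.218 and 2.10 at basal state and 2.43 and 12.04 at 24 h, while SM-Cn-/- libraries held 2.76, 4.21 and 3.93 at basal state and 0.663, 1.16 and 1.98 at 24 h. The basal SM-Cn-/- libraries were above both basal Cn-Ctl libraries and the 24 h SM-Cn-/- libraries were below both 24 h Cn-Ctl libraries, but none of these differences was called (adjusted p = 0.97 and 0.25). The 24 h response differed by −3.43 between genotypes (interval −5.91 to −0.94), which was not called (adjusted p = 0.23). The interval for the mean genotype difference, −0.80 to 0.86 on the log2 scale, leaves room for a difference of either sign. That mean joins differences of opposite sign, 1.58 at basal state and −1.85 at 24 h.

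**Figure D2:**
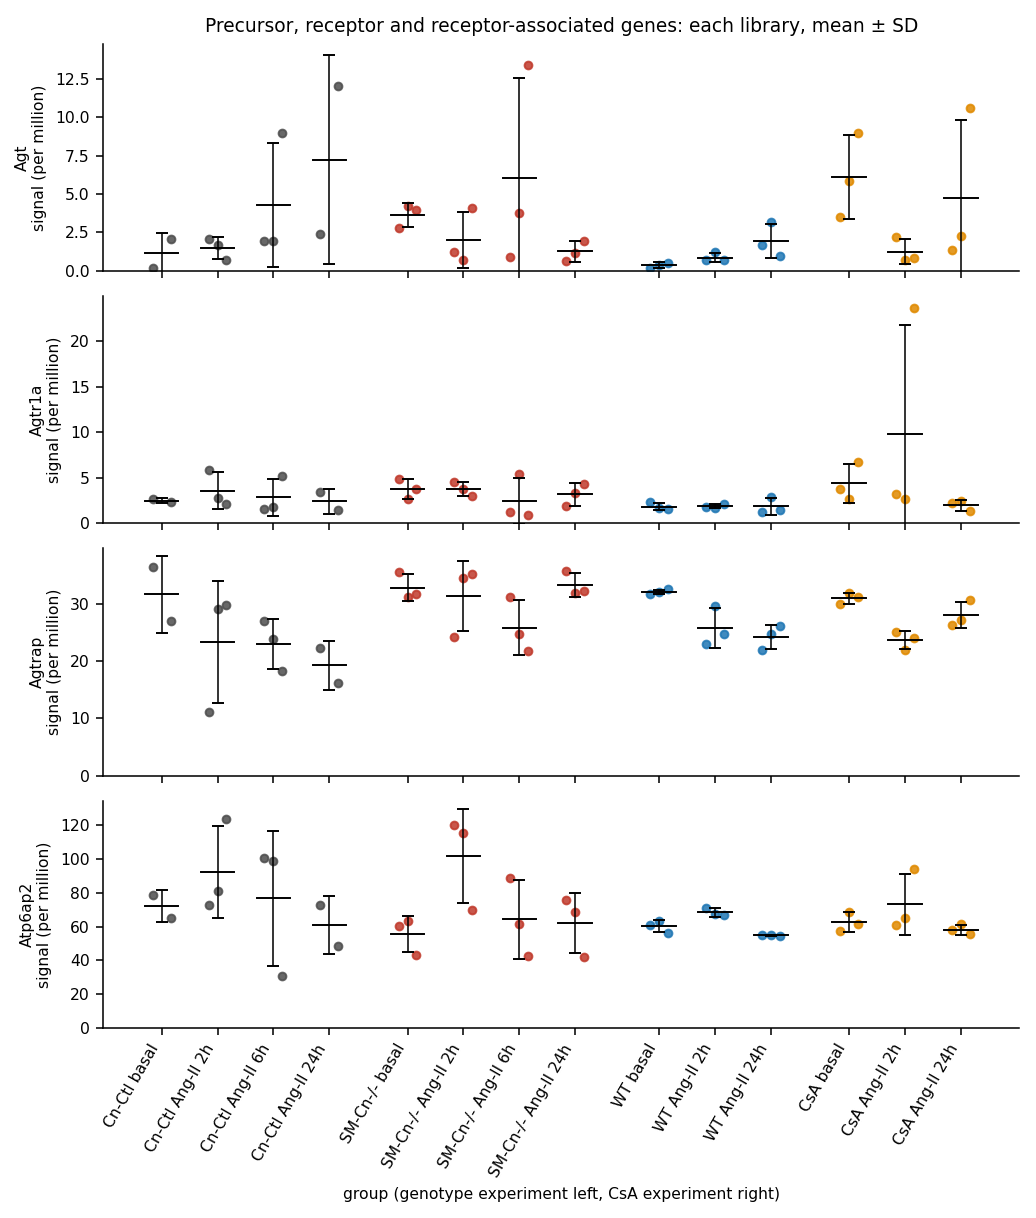
Agt, Agtr1a, Agtrap and Atp6ap2 signal (RPM, linear axes from 0) in each library, with 1 point per pool of 3 aortas and bars for the mean and SD of each group; the SD bars of some groups run past 0. The 3 basal CsA libraries lie above the 3 basal WT libraries for Agt, and 1 CsA library at 2 h stands at 23.6 for Agtr1a.

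Ace, the enzyme that makes Ang-II (chr11:105967945-105989964, plus strand), was higher in SM-Cn-/- than in Cn-Ctl aortas, by 1.82-fold over the 4 states. Cn-Ctl libraries held 135 and 165 at basal state, 235, 303 and 266 at 2 h, 299, 337 and 168 at 6 h, and 305 and 117 at 24 h. SM-Cn-/- libraries held 241, 242 and 206 at basal state, 380, 489 and 449 at 2 h, 551, 490 and 334 at 6 h, and 432, 483 and 495 at 24 h. The genotypes did not overlap at basal state, 2 h or 24 h, and at 6 h 1 SM-Cn-/- library fell just below the highest Cn-Ctl library.

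The mean genotype difference of Ace was 0.86 (SE 0.14, 95% interval 0.56 to 1.16, adjusted p = 0.00031), with arm means of 233 ± 80.4 (SD, n = 10) in Cn-Ctl and 399 ± 117 (SD, n = 12) in SM-Cn-/- aortas. The difference alone passed at 24 h (1.31, SE 0.30, adjusted p = 0.013) and was 0.62, 0.71 and 0.80 at basal state, 2 h and 6 h, with adjusted p-values of 0.96, 0.20 and 0.15. The 24 h call rested on Cn-Ctl 24 h replicate 3, the library at 117, without which the difference was 0.62 (adjusted p = 0.48). Ace was above basal at every hour of Ang-II in all SM-Cn-/- libraries (differences of 0.93, 0.97 and 1.03, adjusted p = 0.11, 0.061 and 0.084), none of them called. In Cn-Ctl mice all libraries at 2 and 6 h were also above both basal ones (0.84 and 0.78, adjusted p = 0.12 and 0.18), and neither difference was called. At 24 h 1 Cn-Ctl library was above and 1 below both. Without SM-Cn-/- 6 h replicate 3 the 6 h value was 1.18 with an adjusted p of 0.046. Reads of Ace and of Gm11651, an antisense gene whose exons overlap it, cannot be told apart where the counting ignored strand.

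Endothelial markers moved with Ace between genotypes. The sum of Pecam1, Cdh5, Tie1, Vwf and Kdr was 542 to 1273 in SM-Cn-/- libraries and 282 to 578 in Cn-Ctl libraries, and 3 of the 5 were called higher in the mean over states (median log2 difference 0.63). Over the 22 libraries log2 Ace and the log2 endothelial sum had a Pearson correlation of 0.78 (Spearman 0.84, and 0.79 without the 2 libraries farthest from the median sum). The values were 0.43 within the 10 Cn-Ctl and 0.73 within the 12 SM-Cn-/- libraries. The smooth muscle sum, given above, was lower in SM-Cn-/- libraries at basal state, 6 h and 24 h. The part of endothelial or smooth muscle content in the difference was not tested. In the CsA experiment the endothelial sum was 721 to 1223 in CsA and 347 to 725 in WT libraries. Ace there differed by 0.04 at basal state (interval −0.27 to 0.35, adjusted p = 0.86), and its correlation with the endothelial sum over the 18 libraries was 0.20.

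In WT aortas Ace was 373, 296 and 356 at basal state, 408, 366 and 381 at 2 h, and 241, 258 and 300.1 at 24 h. In CsA aortas it was 328, 354 and 368 at basal state, 308, 501 and 420 at 2 h, and 346, 417 and 349.6 at 24 h. The 24 h WT libraries were the lowest as a group and lay below all 3 CsA libraries at that hour. Neither the difference from basal (−0.36, adjusted p = 0.070) nor the CsA difference at 24 h (0.48, adjusted p = 0.067) was called. Both differences passed without WT 24 h replicate 3 (−0.45 with adjusted p = 0.047, and 0.57 with adjusted p = 0.044), the first also without WT basal replicate 2 (−0.46, adjusted p = 0.047). The mean CsA difference of 0.19 (adjusted p = 0.099) became 0.26 (adjusted p = 0.015) without CsA 2 h replicate 1.

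Agtr1a, the receptor through which infused Ang-II acts on the vessel (chr13:30336441-30382867, plus strand), was among the lowest of the 7 genes per kb and was called in no comparison. In WT libraries it held 2.31, 1.63 and 1.56 at basal state, 1.82, 1.73 and 2.13 at 2 h, and 1.21, 2.93 and 1.48 at 24 h. In CsA libraries it held 3.71, 2.67 and 6.76 at basal state, 3.24, 2.65 and 23.6 at 2 h, and 2.22, 2.40 and 1.29 at 24 h. All CsA libraries exceeded all WT libraries at basal state and at 2 h, the ranges overlapped at 24 h, and 1 library, CsA 2 h replicate 3, stood far above every other.

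The mean difference of Agtr1a between CsA and WT was 0.85 (SE 0.32, 95% interval 0.16 to 1.53, adjusted p = 0.059). Without CsA 2 h replicate 3 it was smaller but passed (0.54, adjusted p = 0.044). It also passed without CsA 2 h replicate 1 (0.98, 0.038), CsA 2 h replicate 2 (1.03, 0.020) or WT 24 h replicate 2 (0.95, 0.050), and over all alternatives its adjusted p ran from 0.005 to 0.12. The library CsA 2 h replicate 3 also stood apart in genes of sympathetic neurons, a list chosen after the values were seen. There Th, Dbh, Slc18a2, Snap25, Chga and Chrna3 summed to 829, and to at most 151 in the other 17 libraries. Th, the enzyme that starts catecholamine synthesis, was at 188 in it, and Snap25, a protein of synaptic vesicle fusion, at 132. Over the 18 libraries Agtr1a and this sum had a Pearson correlation of 0.77 but a Spearman correlation of 0.25. The Pearson value was 0.49 without that library and 0.06 without the 2 libraries farthest from the median sum, so the relation rested on those libraries. The part of nerve tissue in the Agtr1a values was not tested.

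In the genotype experiment Agtr1a was 2.69 and 2.28 in basal Cn-Ctl and 4.85, 2.68 and 3.71 in basal SM-Cn-/- libraries, and over all 22 libraries it ranged from 0.867 to 5.88. All 7 pairs of groups that were neighbours in the order of their means overlapped. The mean genotype difference was 0.17 (interval −0.43 to 0.76, adjusted p = 0.80), and no hour of Ang-II differed from basal, with adjusted p-values of at least 0.49.

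Agtrap, the receptor-associated protein (chr4:148077061-148088031, minus strand), fell with Ang-II in the CsA experiment. WT libraries held 31.7, 32.0 and 32.5 at basal state, 22.9, 29.6 and 24.7 at 2 h, and 21.9, 24.8 and 26.0 at 24 h. CsA libraries held 30.0, 31.8 and 31.1 at basal state, 25.0, 21.8 and 24.1 at 2 h, and 26.3, 27.1 and 30.6 at 24 h. In WT mice all treated libraries lay below all basal ones at both hours, whereas in CsA mice this held at 2 h and at 24 h 1 library reached the basal range.

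Agtrap fell by 0.32 at 2 h (SE 0.10, adjusted p = 0.030) and by 0.40 at 24 h (SE 0.10, adjusted p = 0.0052) in WT mice. It fell by 0.38 at 2 h in CsA mice (SE 0.10, adjusted p = 0.013). The 24 h difference in CsA mice was −0.14 (adjusted p = 0.37), but the difference between the 24 h responses, 0.26, was not called (interval −0.04 to 0.55, adjusted p = 0.26). The WT 2 h call was lost without WT basal replicate 1, 2 or 3 (adjusted p = 0.070, 0.075 and 0.078), WT 2 h replicate 1 (−0.24, 0.14) or WT 2 h replicate 3 (0.099). The CsA 2 h call was lost without CsA 2 h replicate 2 (−0.33, 0.069). In the genotype experiment Agtrap ranged from 11.1 to 36.3. Both 24 h Cn-Ctl libraries (22.3 and 16.2) lay below all 3 24 h SM-Cn-/- libraries (35.8, 31.9 and 32.2), but this difference of 0.79 was not called (adjusted p = 0.19).

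Atp6ap2, the prorenin receptor (chrX:12587801-12617049, plus strand), was called in no comparison, and its lowest adjusted p was 0.25. It ranged from 54.4 to 94.0 in the CsA experiment and from 30.6 to 124 in the genotype experiment. In WT libraries it held 60.7, 63.6 and 56.3 at basal state, 71.1, 67.2 and 66.6 at 2 h, and 54.95, 55.2 and 54.4 at 24 h. Those 3 groups did not overlap, but the differences from basal were small, 0.18 at 2 h (adjusted p = 0.33) and −0.13 at 24 h (adjusted p = 0.44). The mean CsA difference of Atp6ap2 was 0.07 (interval −0.08 to 0.22, adjusted p = 0.49).

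Enpep, the peptidase that removes the first residue of Ang-II (chr3:129269175-129332720, minus strand), was lower in CsA than in WT aortas at basal state and at 24 h, and lower at 24 h than at basal state in both arms. WT libraries held 21.5, 21.2 and 22.9 at basal state, 23.3, 20.3 and 24.5 at 2 h, and 15.3, 13.6 and 13.4 at 24 h. CsA libraries held 12.99, 15.7 and 13.1 at basal state, 16.9, 17.9 and 17.2 at 2 h, and 9.22, 8.36 and 8.13 at 24 h. Every CsA library lay below every WT library of the same hour, and the 24 h libraries lay below all other libraries of their own arm.

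The CsA difference of Enpep was −0.64 at basal state (SE 0.10, adjusted p = 0.00097), a fold of 0.643. It was −0.37 at 2 h (adjusted p = 0.078), −0.68 at 24 h (adjusted p = 0.0033) and −0.56 for the mean over times (SE 0.06, 95% interval −0.69 to −0.44, adjusted p = 7.2e-05). The arm means were 19.5 ± 4.31 in WT and 13.3 ± 3.92 in CsA aortas (SD, n = 9 each). From basal to 24 h Enpep fell by 0.62 in WT mice (SE 0.10, adjusted p = 0.00023) and by 0.67 in CsA mice (SE 0.10, adjusted p = 0.0015). The difference between these falls was −0.05 (interval −0.35 to 0.26, adjusted p = 0.86). It rose by 0.31 at 2 h in CsA mice (SE 0.10, adjusted p = 0.041). That call was lost without CsA basal replicate 1 or 3 (0.27 each, adjusted p = 0.13 for both) or CsA 2 h replicate 1, 2 or 3 (0.33, 0.29 and 0.31, adjusted p = 0.054, 0.13 and 0.074). Without WT 2 h replicate 2 the CsA difference at 2 h was −0.45 (adjusted p = 0.041).

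In the genotype experiment Enpep was 30.4 and 21.6 in basal Cn-Ctl, 30.0, 18.5 and 34.4 at 2 h, 20.4, 17.6 and 11.4 at 6 h, and 11.4 and 16.96 at 24 h. In SM-Cn-/- aortas it was 21.0, 19.0 and 6.63 at basal state, 18.04, 13.04 and 8.32 at 2 h, 13.3, 7.67 and 10.2 at 6 h, and 11.03, 6.87 and 5.84 at 24 h. At basal state, 2 h and 24 h every SM-Cn-/- library was below every Cn-Ctl library, and the ranges overlapped at 6 h. The mean genotype difference was −0.85 (SE 0.21, 95% interval −1.28 to −0.41, adjusted p = 0.010), with arm means of 21.3 ± 7.92 (SD, n = 10) and 11.7 ± 5.20 (SD, n = 12). None of the 4 states passed alone (−0.86, −1.06, −0.63 and −0.83, adjusted p = 0.97, 0.18, 0.52 and 0.35). Both genotypes had lower Enpep means at 24 h than at basal state, by log2 differences of −0.86 and −0.82 that were not called (adjusted p = 0.34 and 0.44).

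Markers of mural cells other than large-vessel smooth muscle moved with Enpep in several comparisons of the CsA experiment. The pericyte markers Rgs5, Abcc9, Kcnj8, Notch3 and Cspg4 summed to 2809 to 3661 in basal WT, 1442 to 1930 in basal CsA and 1625 to 1815 in 24 h WT libraries. Of the 5, 3 were called lower both in basal CsA against basal WT (median log2 difference −0.57) and in WT mice at 24 h (median −0.99). In CsA mice at 24 h, where Enpep also fell, none of the 5 was called. At 2 h in CsA mice, where Enpep rose, the sum was 2275 to 2764 and 2 of the 5 were called higher. Smooth muscle can express some of these genes, and Rgs5 is also among the receptor regulators described further on. The sum was not weighted by gene, and Rgs5 made up much of it in the CsA libraries whose values are given there. The correlations with the sum therefore lean on Rgs5 and are not a measure of pericyte content. Over the 18 libraries log2 Enpep and the log2 pericyte sum had a Pearson correlation of 0.86 (Spearman 0.91, and 0.83 without the 2 farthest libraries), with 0.96 within the 9 WT and 0.74 within the 9 CsA libraries. Over the 22 libraries of the genotype experiment it was 0.63 (0.77 within the 10 Cn-Ctl and 0.50 within the 12 SM-Cn-/- libraries). For Lnpep the same correlations were 0.82 and 0.48. Between genotypes the pericyte sum was 1574 to 2063 in SM-Cn-/- and 2511.4 to 2511.5 in Cn-Ctl libraries at basal state. At 2 h, where Enpep was also lower in SM-Cn-/- aortas, the sum was 2421 to 2689 against 2110 to 2549 in Cn-Ctl libraries. The ranges overlapped at 6 and 24 h as well. The libraries of an experiment share dissection and sequencing, and the part of mural cell content in either gene was not tested. The smooth muscle sum was also lower in basal CsA and in most SM-Cn-/- groups. Enpep was lower in these groups, and so was Lnpep except in SM-Cn-/- aortas at 24 h.

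**Figure D3:**
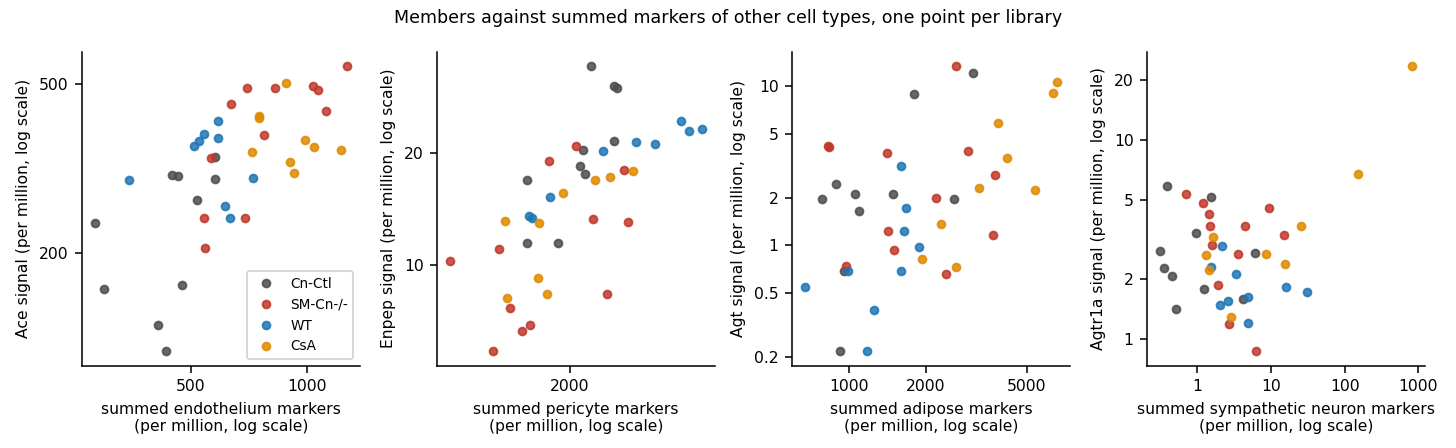
Ace against summed endothelial markers, Enpep against summed pericyte markers, Agt against summed adipose markers and Agtr1a against summed sympathetic neuron genes (signal in RPM, log axes), with 1 point per library coloured by arm. Most SM-Cn-/- libraries lie to the upper right of the Cn-Ctl libraries in the Ace panel, all CsA libraries lie to the right of the WT libraries in the Agt panel, and 1 CsA library stands alone at 829 and 23.6 in the Agtr1a panel.

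Lnpep, the angiotensin IV binding peptidase (chr17:17521410-17625050, minus strand), rose within 2 h of Ang-II in all 4 arms. Averaged over states it was lower in SM-Cn-/- and CsA aortas than in their controls, although not in SM-Cn-/- aortas at 24 h. Cn-Ctl libraries held 11.4 and 8.12 at basal state, 40.0, 35.4 and 33.1 at 2 h, 30.1, 27.7 and 19.9 at 6 h, and 10.1 and 7.38 at 24 h. SM-Cn-/- libraries held 9.18, 3.44 and 3.48 at basal state, 18.2, 15.6 and 13.98 at 2 h, 13.7, 10.1 and 9.20 at 6 h, and 13.1, 6.87 and 9.52 at 24 h. In both genotypes all 2 h libraries were above all basal ones, the 24 h Cn-Ctl libraries were close to the basal ones, and at 2 and 6 h every SM-Cn-/- library lay below every Cn-Ctl library. At 24 h the genotypes overlapped and the SM-Cn-/- mean was slightly the higher, with no call (adjusted p = 0.90).

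At 2 h Lnpep was 1.85 higher than at basal state in Cn-Ctl mice (SE 0.37, 95% interval 1.08 to 2.62, adjusted p = 0.0025), a 3.60-fold rise. It was 1.61 higher in SM-Cn-/- mice (SE 0.33, 95% interval 0.93 to 2.30, adjusted p = 0.015), a 3.06-fold rise. At 6 h the rise was 1.36 in Cn-Ctl mice (SE 0.37, adjusted p = 0.038) and the difference 1.09 in SM-Cn-/- mice (adjusted p = 0.083). At 24 h the differences were −0.15 (adjusted p = 0.88) and 0.91 (adjusted p = 0.24). The 2 h responses differed by −0.24 between genotypes (interval −1.26 to 0.79, adjusted p = 0.93), which was not called and which became 0.19 without SM-Cn-/- basal replicate 1. The level itself differed, with a mean genotype difference of −0.79 (SE 0.17, 95% interval −1.15 to −0.42, adjusted p = 0.0043), a fold of 0.579. The differences of −0.93 at basal state (adjusted p = 0.81), −1.16 at 2 h (adjusted p = 0.052) and −1.20 at 6 h (adjusted p = 0.064) did not pass alone.

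Single libraries decided several of the hourly calls of Lnpep. The Cn-Ctl 2 h call was lost without Cn-Ctl basal replicate 3 (1.62, adjusted p = 0.079). The 6 h call was lost without Cn-Ctl basal replicate 2 or 3 (1.59 and 1.12, adjusted p = 0.12 and 0.36) or Cn-Ctl 6 h replicate 1 or 2 (1.24 and 1.30, adjusted p = 0.097 for both). The SM-Cn-/- 2 h call was lost without SM-Cn-/- basal replicate 2 or 3 (1.40 for both, adjusted p = 0.052 and 0.13) or SM-Cn-/- 2 h replicate 1 or 2 (1.52 and 1.62, adjusted p = 0.093 and 0.062). Without SM-Cn-/- basal replicate 1, the highest of its group, the SM-Cn-/- differences were 1.52 at 6 h (adjusted p = 0.015) and 1.34 at 24 h (adjusted p = 0.046). Without SM-Cn-/- 6 h replicate 1 the genotype difference at 6 h was −1.36 (adjusted p = 0.043). The mean genotype difference of Lnpep passed in every alternative.

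In the CsA experiment Lnpep was again highest at 2 h. WT libraries held 36.5, 38.3 and 39.2 at basal state, 75.6, 52.8 and 57.5 at 2 h, and 30.3, 34.0 and 29.6 at 24 h. CsA libraries held 36.3, 28.6 and 24.9 at basal state, 38.0, 46.5 and 41.8 at 2 h, and 22.5, 24.8 and 19.9 at 24 h. In both arms the 2 h libraries were above all basal ones and the 24 h libraries below them, and at each hour every CsA library lay below every WT library.

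Lnpep rose by 0.68 at 2 h in WT mice (SE 0.14, adjusted p = 0.0027), a 1.60-fold rise, and by 0.50 in CsA mice (SE 0.14, adjusted p = 0.022). The difference between these rises was −0.18 (interval −0.61 to 0.25, adjusted p = 0.72). At 24 h the differences from basal were −0.28 in WT mice (adjusted p = 0.15) and −0.40 in CsA mice (adjusted p = 0.091), neither of them called. The CsA difference was −0.46 for the mean over times (SE 0.08, 95% interval −0.63 to −0.28, adjusted p = 0.0012), with arm means of 43.8 ± 15.2 in WT and 31.5 ± 9.44 in CsA aortas (SD, n = 9 each). It was −0.36, −0.54 and −0.48 at basal state, 2 h and 24 h (adjusted p = 0.078, 0.073 and 0.059). The 2 h call in CsA mice was lost without CsA basal replicate 2 or 3 (0.48 and 0.38, adjusted p = 0.063 and 0.11) or CsA 2 h replicate 2 (0.43, adjusted p = 0.10). The difference from WT passed at basal state without CsA basal replicate 1 (−0.50, adjusted p = 0.026) and at 2 h without WT 2 h replicate 2 (−0.64, adjusted p = 0.040). The 24 h difference from basal in CsA mice passed without CsA basal replicate 3 (−0.52, adjusted p = 0.048).

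**Figure D4:**
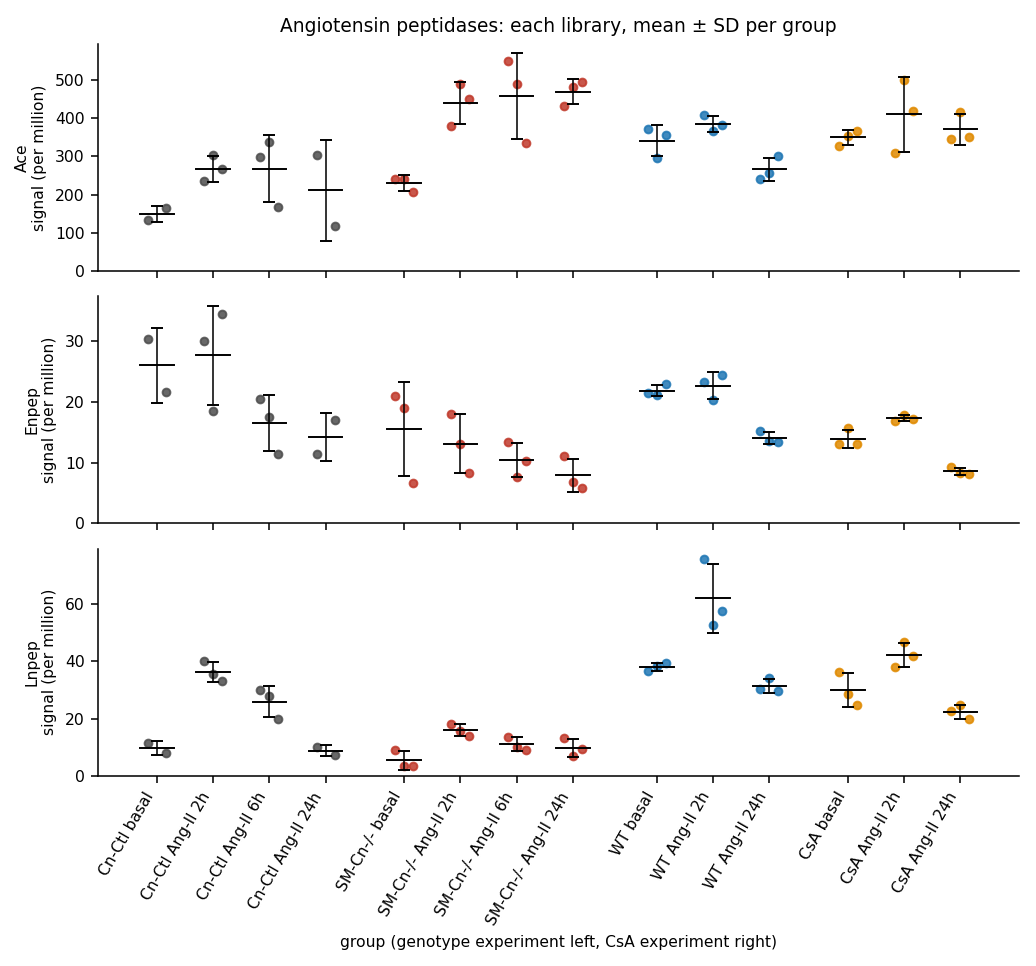
Ace, Enpep and Lnpep signal (RPM, linear axes from 0) in each library, with 1 point per pool of 3 aortas and bars for the mean and SD of each group. Lnpep peaks at 2 h in all 4 arms, and Enpep is lower in CsA than in WT libraries at each hour.

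Ordered by group mean, Lnpep in the genotype experiment ran from 36.2 at 2 h in Cn-Ctl to 5.37 at basal state in SM-Cn-/- mice, a 6.74-fold range in which 4 of the 7 neighbouring pairs of groups overlapped. In the CsA experiment it ran from 61.9 at 2 h in WT to 22.4 at 24 h in CsA mice, a 2.77-fold range with 2 of 5 neighbouring pairs overlapping. Enpep ran from 27.6 at 2 h in Cn-Ctl to 7.92 at 24 h in SM-Cn-/- mice (6 of 7 pairs overlapping) and from 22.7 at 2 h in WT to 8.57 at 24 h in CsA mice (2 of 5 overlapping). Ace ran from 470 at 24 h in SM-Cn-/- to 149.7 at basal state in Cn-Ctl mice (6 of 7 overlapping), and in the CsA experiment from 410.0 to 266, where all 5 neighbouring pairs overlapped.

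Among 10345 genes ranked by the lower of their 2 Pearson correlations with each gene, over the 22 and the 18 libraries, the closest to Lnpep was Hsp90ab1, a cytosolic chaperone (0.91 and 0.90), followed by Pdlim5 and Hipk3. The closest to Agt were Trf, which encodes the iron carrier transferrin (0.88 and 0.85), and the complement genes C3 and C4b. The closest to Ace was Lamc3, a laminin chain (0.83 and 0.79), to Enpep Csgalnact1 (0.81 and 0.84), to Agtrap Pik3r4 (0.83 for both) and to Atp6ap2 Serinc1 (0.95 and 0.84). The closest to Agtr1a, Tln2, reached only 0.55 in the genotype experiment, with 0.91 in the CsA experiment, where 1 library stood apart. These correlations were over libraries that share treatments and depth and are given as a description.

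Of 24 further genes of the system, 16 were listed and tested in both experiments. In the genotype experiment few were called: Nr3c2, the mineralocorticoid receptor, was lower than basal at 6 and 24 h in Cn-Ctl mice and at 6 h in SM-Cn-/- mice, and Prep, prolyl endopeptidase, was lower in the genotype mean. Nr3c2 went from 32.6 and 24.7 at basal state to 10.2, 6.01 and 4.23 at 6 h and 9.51 and 4.79 at 24 h in Cn-Ctl libraries (−2.07 and −1.99, adjusted p = 0.0035 and 0.0084). It went from 17.4, 20.0 and 19.4 to 9.32, 5.09 and 3.64 at 6 h in SM-Cn-/- libraries (−1.67, adjusted p = 0.015). No treated library of these groups overlapped its basal group. In the CsA experiment Nr3c2 also fell at 24 h, from 20.8, 19.1 and 16.2 to 8.44, 5.31 and 7.28 in WT mice (−1.37, adjusted p = 3.5e-05) and from 16.9, 19.3 and 14.2 to 9.60, 9.92 and 13.3 in CsA mice (−0.60, adjusted p = 0.048). The Nr3c2 calls in Cn-Ctl mice were lost without Cn-Ctl basal replicate 2 (adjusted p = 0.088 at 6 h and 0.11 at 24 h), the 24 h call also without Cn-Ctl 24 h replicate 3 (0.17). The SM-Cn-/- call was lost without SM-Cn-/- basal replicate 3 or 6 h replicate 2 or 3 (0.066, 0.070 and 0.072), and the CsA call without CsA basal replicate 1 or 2 or CsA 24 h replicate 1 or 2 (0.13, 0.15, 0.16 and 0.15). With only the groups compared in the fit the 3 genotype-experiment calls were lost (0.081 and 0.080 in Cn-Ctl at 6 and 24 h, 0.097 in SM-Cn-/-). The CsA call of Nr3c2 was also lost with quantile normalization (0.052), median-ratio scaling (0.050), all biotypes (0.051), edgeR (0.053), the replicate block (0.072) and only the groups compared (0.098).

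In WT mice at 24 h 5 of the 16 were higher and 2 lower (35.0% of all genes called), and in CsA mice 1 was higher and 2 were lower (8.98%). Bdkrb1, the inducible kinin receptor, rose from 0.650, 0.393 and 0.142 at basal state to 3.26, 7.48 and 2.65 at 24 h in WT libraries (2.39, adjusted p = 0.00023). Thop1, a peptidase that cuts angiotensin I, rose by 0.74 (adjusted p = 0.00014). Both were lower in CsA than in WT aortas at 24 h (−1.57 and −0.56, adjusted p = 0.030 and 0.013). At basal state 4 of the 16 were higher and 1 lower in CsA than in WT aortas (25.2%). Ren1, renin, held 3.43, 3.36 and 3.60 in basal CsA and 1.04, 1.67 and 0.791 in basal WT libraries (1.28, adjusted p = 0.045). Mme, neprilysin, differed by 1.18 (adjusted p = 0.032) and Rnpep, aminopeptidase B, by 0.48 (adjusted p = 0.018). At 2 h of Ang-II 3 of the 16 fell in CsA mice (20.2%), among them Ren1 (−1.44, adjusted p = 0.031) and Rnpep (−0.68, adjusted p = 0.0029), and 1 fell in WT mice (21.4%). The basal Ren1 call was lost without any 1 of the 6 libraries compared (adjusted p = 0.055 to 0.14), and its 2 h call without any basal CsA library or CsA 2 h replicate 2 or 3 (0.065 to 0.094). The Mme call was lost without WT or CsA basal replicate 1 or 3 (0.062 to 0.14), the basal Rnpep call without WT basal replicate 1 or 2 or CsA basal replicate 3 (0.064, 0.052 and 0.068). The 24 h CsA difference of Bdkrb1 was lost without WT or CsA 24 h replicate 1 or 2 (0.055 to 0.18) and that of Thop1 without WT or CsA 24 h replicate 2 (0.080 and 0.055). With only the groups compared the Bdkrb1 and Thop1 differences were lost (0.12 and 0.13), and that of Bdkrb1 also with a pseudocount of 0.1 (0.070) and edgeR (0.074). The basal Ren1 call was lost with a pseudocount of 0.1 (0.055), edgeR (0.063) and quantile normalization (0.17), its 2 h call with quantile normalization (0.085).

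Of 24 genes that couple, silence or follow the receptor, 23 were tested. Grk5, a kinase that desensitises receptors, went from 29.2 and 26.4 at basal state to 81.5, 79.2 and 74.0 at 2 h, 81.3, 95.6 and 59.7 at 6 h, and 86.8 and 85.3 at 24 h in Cn-Ctl libraries. These were rises of 1.48, 1.46 and 1.62 (adjusted p = 0.00026, 0.00066 and 0.00085). In SM-Cn-/- libraries Grk5 held 38.4, 32.8 and 27.5 at basal state, 54.6, 41.4 and 41.9 at 2 h, 42.6, 33.6 and 24.5 at 6 h, and 52.5, 43.6 and 36.3 at 24 h. It was lower in SM-Cn-/- than in Cn-Ctl mice at 2, 6 and 24 h (−0.77, −1.23 and −0.97, adjusted p = 0.044, 0.0023 and 0.018). The basal ranges lay close together. The response of Grk5 to Ang-II was not called as different between genotypes at 2, 6 or 24 h. The difference in response at 6 h was −1.46 (adjusted p = 0.14), and the adjusted p at 2 h was 0.29. The 6 h value passed with DESeq2 (0.0044), the replicate block (0.045) or without SM-Cn-/- 6 h replicate 1 (0.031). In WT libraries Grk5 held 26.7, 29.4 and 36.7 at basal state and 92.8, 95.9 and 79.8 at 24 h (1.53, adjusted p = 9.5e-07), against 34.1, 28.7 and 30.8 and then 51.5, 45.7 and 56.3 in CsA libraries (0.70, adjusted p = 0.0050). The 24 h rise of Grk5 differed by −0.82 in CsA against WT mice (SE 0.19, adjusted p = 0.015). The genotype call of Grk5 at 2 h was lost without Cn-Ctl 2 h replicate 1, 2 or 3 or SM-Cn-/- 2 h replicate 2 or 3 (adjusted p = 0.065 to 0.20). That at 24 h was lost without Cn-Ctl or SM-Cn-/- 24 h replicate 2 or 3 (0.056 to 0.13). The 2 h call was also lost with quantile normalization (0.12), all biotypes (0.050) and edgeR (0.053), and those at 6 and 24 h with only the groups compared (0.12 and 0.051).

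Rgs4, which ends G protein signals, held 114 and 179 at basal state and 125, 141 and 116 at 6 h in Cn-Ctl libraries, against 120.0, 146 and 105 and then 42.0, 28.0 and 27.2 in SM-Cn-/- libraries. The 6 h SM-Cn-/- libraries lay far below all the others named. The change from basal in SM-Cn-/- mice was −1.93 (adjusted p = 1.4e-05), and the genotype differences at 2, 6 and 24 h were −1.09, −1.98 and −0.92 (adjusted p = 0.0026, 7.5e-06 and 0.021). Grk5 and Rgs4 were the 2 genes of the 23 called lower in SM-Cn-/- mice at each hour of Ang-II. Plcb1, a phospholipase, was lower at 24 h in Cn-Ctl (−1.39, adjusted p = 0.029) and WT mice (−0.66, adjusted p = 0.00079), and Cyba, an oxidase subunit, was higher at 24 h in SM-Cn-/- mice (1.24, adjusted p = 0.042). Rgs5 was lower at 24 h in WT mice (−1.31, adjusted p = 0.00018) and in basal CsA aortas (−1.10, adjusted p = 0.0024). It rose at 2 h in CsA mice, from between 774 and 1194 to between 1361 and 1640 (0.67, adjusted p = 0.033). That call was lost with quantile normalization (0.28), the replicate block (0.052), only the groups compared (0.058), or without CsA basal replicate 1 or 3 or CsA 2 h replicate 2 or 3 (0.076 to 0.15). Rgs2 was higher at 2 h in WT mice (1.15, adjusted p = 0.0029) and in basal CsA aortas (1.06, adjusted p = 0.0058). Calls lost without 1 library were the 24 h genotype difference of Rgs4 (Cn-Ctl or SM-Cn-/- 24 h replicate 2 or 3, adjusted p = 0.062 to 0.13) and the 24 h call of Plcb1 in Cn-Ctl mice (Cn-Ctl basal replicate 2 or 3 or 24 h replicate 3, 0.15 to 0.42). The Cyba call was lost without 1 of 5 libraries (SM-Cn-/- basal replicate 1 or 3 or any 24 h library, 0.13 to 0.17). It was also lost with median-ratio scaling (0.060) and with only the groups compared (0.055), a fit that also lost the Plcb1 call in Cn-Ctl mice (0.14). Over the 23 genes, 12 were called at 24 h in WT mice (4 higher), where 35.0% of all genes were called. In CsA mice 2 were called (1 higher), against 8.98%. Between basal CsA and WT aortas 11 differed (3 higher), against 25.2%.

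**Figure D5:**
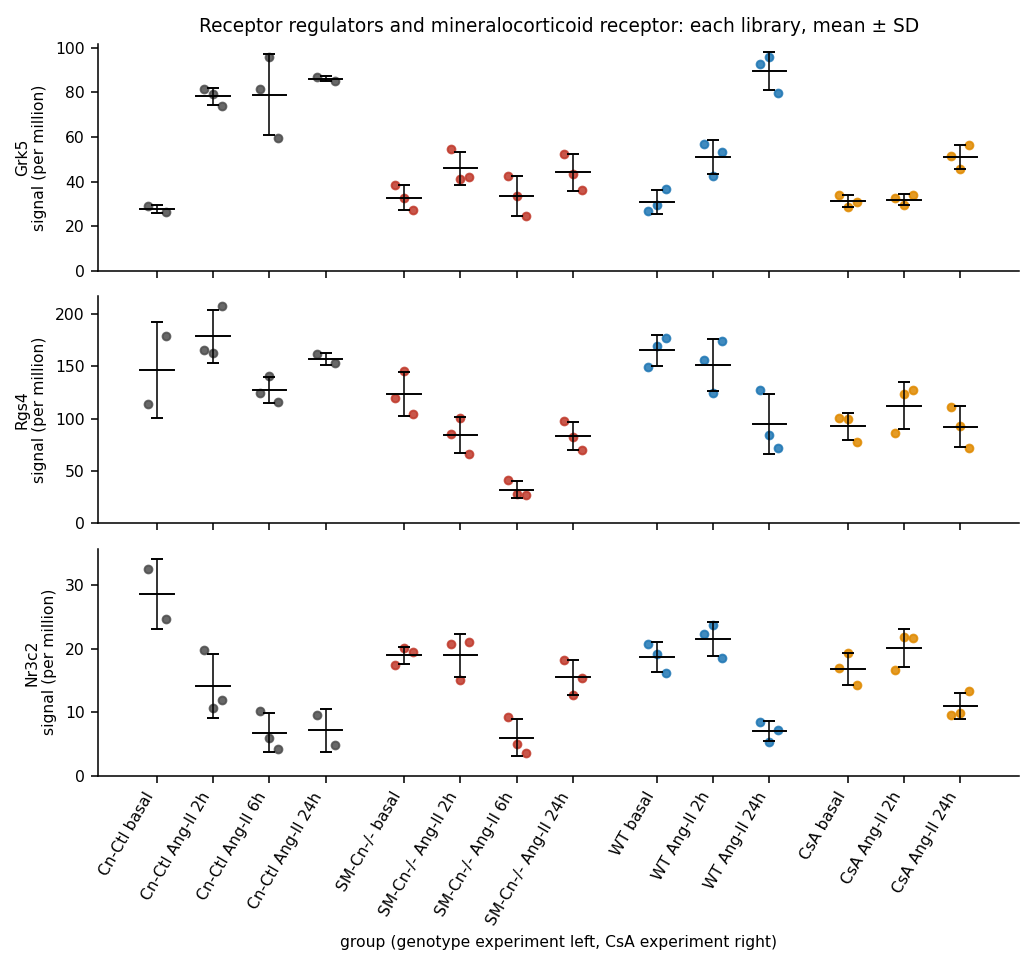
Grk5, Rgs4 and Nr3c2 signal (RPM, linear axes from 0) in each library, with 1 point per pool of 3 aortas and bars for the mean and SD of each group. Grk5 is between 59.7 and 95.6 in the treated Cn-Ctl libraries and between 24.5 and 54.6 in the treated SM-Cn-/- libraries.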

How the data were processed

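RNA-seq libraries were oligo-dT primed and read on an Illumina Genome Analyzer IIx. Per the submitters' processing notes, Bowtie 0.12.7, RSEM 1.16 and GRCm38 were used, and the scaling and filtering steps are not given in the sources used here. The authors deposited a normalised signal per gene, which equalled (assigned reads + 0.5) in RPM of a scaled library size: whole reads were recovered for 100% of values (tolerance 0.01) and used only in alternatives. Protein-coding genes with a signal of at least 1 in at least 2 libraries were tested (14412 and 13731 genes, 0 and 3 removed) with limma 3.58.1 (R 4.3.3) on log2(signal + 0.5), 1 mean per group over all libraries of an experiment, moderated with an intensity trend, two-sided, with Benjamini-Hochberg adjustment per comparison at 0.05. Fold changes are on that scale and understate low genes. Nothing states that pools of one group are separate cohorts, so p-values measure the spread between pools.

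Groups came from sample titles. The 7 genes and all lists were chosen with earlier results of these data known. Named were the 7 genes, up to 6 genes of each further list by size of a called difference, Ppp3r1, and the 3 genes most alike in pattern (the lower of 2 Pearson correlations of log2 signal). The pseudocount, scaling, filter, biotypes, edgeR 4.0.16, DESeq2 1.42.0, a replicate block, the groups fitted, and each library left out were varied. The procedure was tested on simulated reads with an assumed spread for each experiment. For Cn-Ctl at 2 h against basal it found 29 of 98 genes changed by 1 on the log2 scale and 100 of 102 changed by 2. For WT at 2 h against basal it found 106 of 106 and 94 of 94. False calls numbered 7 and 15. A missing call in the genotype experiment therefore does not show that a change of 1 was absent. The assumed spread was the same for all genes of an experiment. Agt and Agtr1a had SEs of 0.54 and 0.56 at 2 h against basal in WT mice, so that limit holds for them there as well. Sequences came from RefSeq, with no entry for Agtr1a, and the Lnpep window lies in exons and is not printed. Exon lengths are from GENCODE. Among the 24 further genes of the system, Ren2, Agtr2, Mas1, Mrgprd, Ctsg, Hsd11b2 and Klk1, among others, were not analysed here, nor was Nox1 among the receptor regulators.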

Additional observations from a re-analysis of the deposited data

Results flagged for a closer look

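None of the 7 genes responded to Ang-II in a way that was shown to differ between genotypes or between CsA and WT mice. Some genes of the 2 further lists, the receptor regulators and the other genes of the system, did pass the test of a difference in response. The 6 h change of Rgs4 was 1.76 lower on the log2 scale in SM-Cn-/- than in Cn-Ctl mice (−1.76, adjusted p = 0.028 with limma), and the call was lost without any 1 of Cn-Ctl basal replicate 2 (adjusted p = 0.43), Cn-Ctl 6 h replicate 2 or 3 (0.10 and 0.058), SM-Cn-/- basal replicate 1 or 2 (0.11 and 0.080) or SM-Cn-/- 6 h replicate 2 or 3 (0.084 and 0.094). It was also lost with edgeR (−1.69, adjusted p = 0.062) and with only the groups compared in the fit (0.15). At 24 h the response of Grk5 differed by −0.82 in CsA against WT mice (adjusted p = 0.015) and that of Thop1 by −0.73 (adjusted p = 0.015). The 24 h response of Rgs5 differed by 1.14 (adjusted p = 0.026), lost without WT basal replicate 2 or 3, WT 24 h replicate 2, CsA basal replicate 3 or CsA 24 h replicate 1 or 2 (adjusted p = 0.052 to 0.074). The 24 h response of Plcb4, a phospholipase activated by Gq, differed by 0.80 (adjusted p = 0.018), lost without CsA 24 h replicate 1 or 2 (0.055 and 0.056), and that of Arhgef1 by 0.49 (adjusted p = 0.042), lost without any 1 of 11 of the 12 libraries compared.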

How the results depend on the processing

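Of the 22 called differences of the 7 genes, 12 passed in every alternative and 0 changed sign. The change of Lnpep at 2 h, not called as different between genotypes (−0.24), ran from −0.47 (without Cn-Ctl basal replicate 2) to 0.19 (without SM-Cn-/- basal replicate 1) with 1 library left out. Replicate numbers were not shown to pair the samples. Deviations of same-numbered libraries had correlations of −0.37 to 0.34 and −0.39 to 0.38. Their medians were 0.06 and −0.03, against −0.04 and −0.01 for libraries with different numbers. In the 2 experiments 10 of 22 and 6 of 18 libraries correlated best with their own number. The level expected without pairing was not computed, so pairing was not settled. With the replicate block, called genes among the 7 numbered 2, 2 and 1 in SM-Cn-/- mice at 2, 6 and 24 h and 1 and 1 between genotypes at 2 and 6 h (without the block 1, 0, 0, 0 and 0). With DESeq2 they numbered 2 and 2 in Cn-Ctl at 2 and 6 h, 2, 1 and 1 in SM-Cn-/- at 2, 6 and 24 h, 1 and 2 between genotypes at 2 and 6 h, 3 and 3 between CsA and WT at 2 and 24 h, and 1 for each CsA difference in response. With only the groups compared in the fit they numbered 2 and 0 in Cn-Ctl at 2 and 6 h, 1 in SM-Cn-/- at 24 h, 2 and 0 between genotypes at 2 and 24 h, 1 and 5 in WT at 2 and 24 h, 2 in CsA at 2 h and 0 between CsA and WT at 24 h. That fit lost the calls of Ace (adjusted p = 0.095) between genotypes at 24 h, Enpep between CsA and WT at 24 h (0.11) and in CsA at 2 h (0.13), Agtrap in WT at 2 h (0.066), and Lnpep in Cn-Ctl at 6 h (0.13), SM-Cn-/- at 2 h (0.067) and CsA at 2 h (0.078), and the block lost that of Enpep in CsA at 2 h (0.059). Quantile normalization gave 1 in SM-Cn-/- at 24 h, 1 between genotypes at 2 h and 2 between CsA and WT at 24 h, median-ratio scaling gave 1 in SM-Cn-/- at 6 h and 1 between genotypes at 2 h, and a pseudocount of 1, a filter at 5 and edgeR each gave 1 between genotypes at 2 h. With 1 library left out, the counts ran from 0 to 1 in Cn-Ctl at 2 and 6 h, in SM-Cn-/- at each hour, between genotypes at 6 and 24 h and for the CsA response at 24 h, from 1 to 2 in WT at 2 h, 2 to 4 in WT at 24 h, 0 to 4 in CsA at 2 h, 1 to 2 in CsA at 24 h, and, between CsA and WT, 2 to 3 at basal state, 0 to 2 at 2 h, 1 to 2 at 24 h and 3 to 5 for the mean; the genotype mean kept a count of 3. The counts of each setting are not set beside the share of all genes called with that setting. A higher count is therefore not a result about the 7 genes. Where 1 library remained in a group, it was assumed to vary like the others. The correlation of Agtr1a with neuron genes fell from 0.77 to 0.49 without CsA 2 h replicate 3, an alternative chosen after seeing the data. The causes were not tested. Depth limits Agt and Agtr1a in the genotype experiment, where libraries held as few as 1 and 2 reads.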
